A study of Homo sapiens with 6 samples.

Results

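The genes of the proteasome were followed in RNA sequencing libraries of a human oral squamous cell carcinoma line, a head and neck squamous cell carcinoma (HNSCC) model, kept under hypoxia or normoxia. The members were taken by symbol: every protein-coding gene whose name begins with PSM, a letter from A to G and a digit. This rule gave 48 of the 21776 genes measured, of which 15717 were protein-coding. Of the 48, 46 code for a proteasome subunit, assembly chaperone, activator or inhibitor. The other 2 carry the name only: PSMC3IP, a meiotic recombination factor, and PSME3IP1, a partner of the activator PSME3. PSMA8 and PSMB11, the germ cell and thymus subunits, were not among the genes measured. The study asked how hypoxia brings more PD-L1 to the membrane of HNSCC cells, and these transcriptomes were its first step. All libraries are labelled as wild-type SCC25 and as treated for 12 h, whereas the study's figure legend for the transcriptome names SCC9, another oral squamous carcinoma line. Hypoxia was a gas mixture with 1% O2 and 5% CO2, the rest nitrogen, and normoxia was air with 5% CO2. There were 3 libraries per condition, and the labels do not say whether they came from separate cultures, so the p-values measure the spread between these libraries, which may be technical.

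The proteasome is the main protease of the cytosol and nucleus for proteins tagged with ubiquitin. Its 20S core is a barrel of alpha and beta rings with the catalytic sites inside, and the 19S cap, built from ATPases and non-ATPase subunits, binds the tagged protein, removes the ubiquitin and threads the chain into the barrel. Interferon gamma induces replacement catalytic subunits, which form the immunoproteasome, and the activator PSME1-PSME2, and both are known for their part in making peptides for MHC class I.

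In total 30186813, 36076088 and 32272716 reads were counted for the hypoxia libraries (replicates 1, 2 and 3), and 37278703, 29637189 and 29981208 for the normoxia libraries in the same order. Levels in a library are given as CPM, read counts scaled to the library total and by edgeR's TMM factor, and levels of different genes are compared as FPKM, which also divides by gene length. Both are relative measures of bulk RNA, in which fewer cells of a type and less RNA per cell cannot be told apart. VEGFA, a hypoxia-induced growth factor, was at 1202, 1317 and 1315 CPM under hypoxia and at 180, 167.8 and 204.5 CPM under normoxia, so the labels of the 2 conditions matched this response gene. CA9, a hypoxia-induced carbonic anhydrase, was at 261.8, 277.2 and 292.6 CPM under hypoxia and at 32.19, 27.29 and 67.67 CPM under normoxia. EGLN3, a hypoxia-induced prolyl hydroxylase, was at 609.3, 731.9 and 745.3 CPM under hypoxia and at 5.858, 3.739 and 10.72 CPM under normoxia. In all 3 genes normoxia replicate 3 was the normoxia library nearest to hypoxia. Of 10 epithelial markers, not all of them particular to squamous cells, 7 had at least 1 FPKM in every library. EPCAM was the most abundant, whereas KRT14, a basal keratin, had at most 1 read in any library. The 10 markers summed to 442, 430 and 431 FPKM under hypoxia and 477, 469 and 482 FPKM under normoxia. Of this EPCAM alone made up 168, 163 and 159 FPKM under hypoxia and 204, 200 and 201 FPKM under normoxia. Single markers moved in opposite directions. CDH1 was at 98.1, 102 and 99.2 FPKM under hypoxia and 37.4, 35.7 and 40.5 FPKM under normoxia. SFN was at 97.8, 87.5 and 95.1 against 159, 158 and 155 FPKM, and KRT6A at 0.258, 0.336 and 0.658 against 8.08, 7.85 and 5.14 FPKM. The leukocyte markers PTPRC and CD3E had at most 2 reads in any library, and the list, with CD68 as its most abundant gene, summed to 20.1, 22.7 and 23.5 FPKM under hypoxia and to 19.7, 18.6 and 20.8 FPKM under normoxia. Within it CD14 was at 3.89, 3.42 and 3.49 FPKM under hypoxia and at 0.522, 0.431 and 0.974 FPKM under normoxia. The 3 endothelial markers, CDH5 above the others, summed to 0.25 to 0.317 FPKM under hypoxia and to 0.0659 to 0.178 FPKM under normoxia. The fibroblast list summed to 3.57, 3.2 and 2.81 FPKM under hypoxia and to 0.66, 0.503 and 0.901 FPKM under normoxia, led by COL1A1, with COL3A1 and DCN at 4 reads or fewer in every library. The part of these low signals in the results was not tested.

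Transcripts of the proteasome were lower under hypoxia as a whole. The 46 proteasome genes took 0.573, 0.532 and 0.561% of all reads in the hypoxia libraries and 0.997, 1.01 and 0.959% in the normoxia libraries, and these shares did not overlap. Genes were tested with edgeR (quasi-likelihood test, Benjamini-Hochberg adjustment) over the 14255 genes that passed its filter on low counts, a set that held all 48 members. Of these, 44 were lower, 3 were higher and 1 did not pass the threshold of 0.05. Over all tested genes 38.5% were called lower and 39.2% higher. TMM scaling centres the changes, and the share of calls that were higher moved from 50.5% to 45.3% with limma on log2(FPKM + 1) and to 54% with the same test without a filter. A fall by at least 1 on the log2 scale was called for 16 members, against 10.5% of all tested genes. In 44 members the highest hypoxia library was under the lowest normoxia library, and in 3 the lowest was above the highest, against 39.9% and 40.6% of all tested genes. The median log2-fold change of the members was -0.87 and that of all tested genes was 0.02, with a middle 50% from -0.54 to 0.76. Set against the normoxia mean, the median member stood at -0.85, -0.93 and -0.81 in hypoxia replicates 1 to 3 on the log2 scale. Hypoxia replicate 2 was thus the lowest of the 3, and their SD was 0.0594. Each normoxia library against the other normoxia libraries stood at -0.005, 0.067 and -0.076, so that replicate 3, the one nearest to hypoxia in the response genes, was also the lowest for the members. Without it the median member change was -0.92, with 44 members lower and 3 higher.

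**Figure D1:**
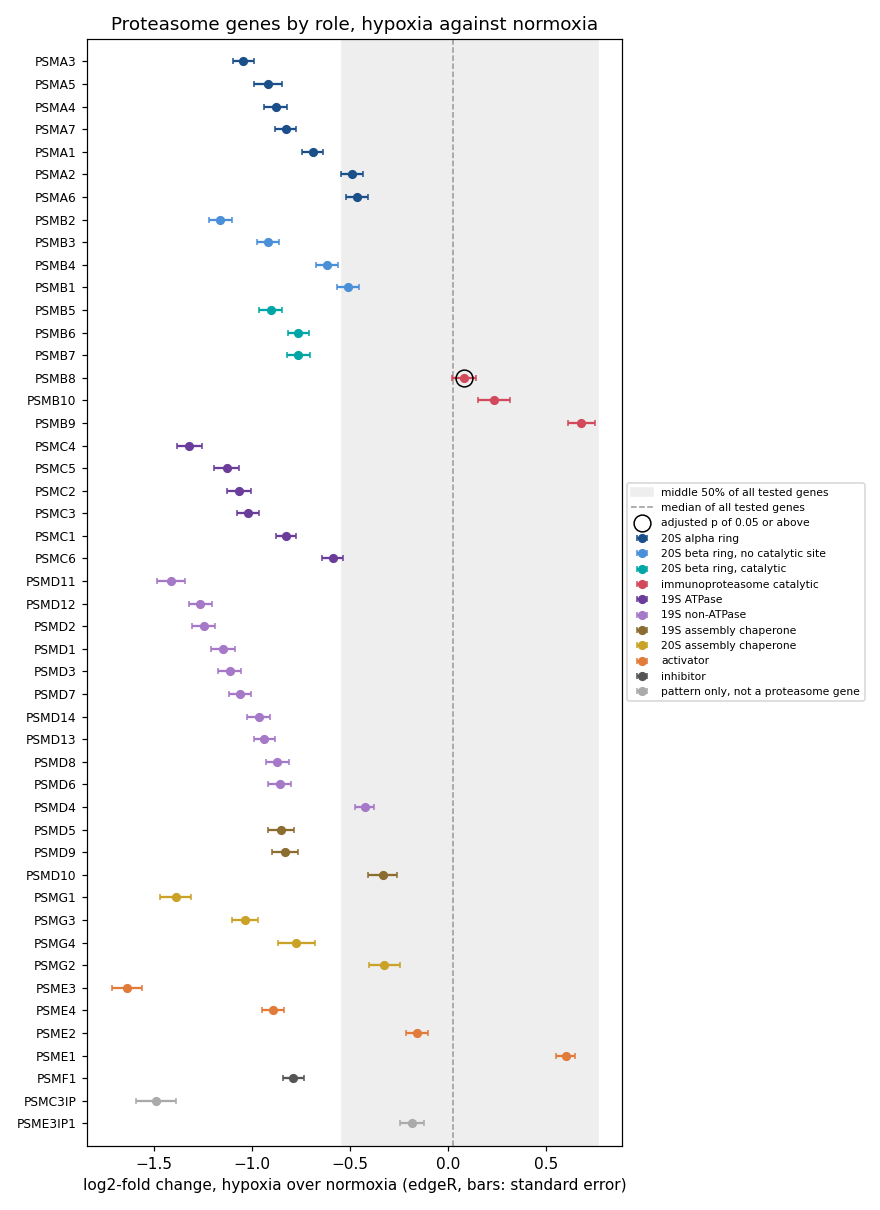
Log2-fold change of each of the 48 genes, hypoxia over normoxia, in blocks by role, with bars for the standard error; the grey band marks the middle 50% of all tested genes. All 31 constitutive subunits lie left of 0, PSMB9, PSMB10 and PSME1 lie right of it, and the ringed PSMB8 did not pass the threshold.

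The name rule took 31 constitutive subunits of the 26S proteasome, the 20S core with its 19S cap, and all were lower. Their median log2-fold change was -0.92, with a range from -1.41 (PSMD11) to -0.43 (PSMD4). The SD of these changes was 0.259, against 1.26 over all tested genes, which were not matched to the subunits in level. The cap subunits ADRM1 and SEM1 lie outside the rule, so the counts here leave them out. They changed by -0.92 and -0.29. In the 20S core 14 of 14 genes fell with a median of -0.80, and in the 19S cap 17 of 17 fell with a median of -1.06. A fall of at least 1 on the log2 scale was called for 2 genes of the core and for 10 of the cap. The difference between core and cap was not tested.

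The alpha ring gates the entrance of the barrel. All 7 alpha genes were lower, from -1.04 for PSMA3 to -0.46 for PSMA6, with a median of -0.83. PSMA3 was at 72.57, 67.54 and 71.38 CPM under hypoxia and at 147.2, 148.7 and 139.7 CPM under normoxia. The hypoxia libraries therefore held 48.5% of the normoxia level, with no overlap (log2-fold change -1.04, SE 0.0548, adjusted p = 1.5e-11). PSMA7, the most abundant alpha gene, moved from 439.9 ± 1.25 to 247.8 ± 13.1 CPM (SD, n = 3).

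The beta ring holds 4 subunits without a catalytic site and 3 with one. The 4 without (PSMB1, PSMB2, PSMB3 and PSMB4) fell with changes from -1.16 to -0.51. PSMB2, the gene with the largest fall in the core, was at 162.3, 150.1 and 163.7 CPM under hypoxia and at 351.2, 381.7 and 331.7 CPM under normoxia. Even its lowest normoxia library was above its highest hypoxia library by more than the range within either condition (log2-fold change -1.16, SE 0.0598, adjusted p = 1.18e-11). The 3 catalytic genes fell by similar amounts. PSMB5, which carries the chymotrypsin-like site, was at 132.3, 117 and 131.8 CPM under hypoxia and at 235.6, 248.1 and 228.7 CPM under normoxia. PSMB6, with the caspase-like site, was at 103.7, 94.56 and 99.33 CPM under hypoxia and at 170.5, 168.6 and 165.7 CPM under normoxia. PSMB7, with the trypsin-like site, was at 166.9, 151.9 and 172.3 CPM under hypoxia and at 273.1, 295.9 and 263.9 CPM under normoxia. In each of the 3 the conditions did not overlap, and hypoxia replicate 2 was the lowest library. Their log2-fold changes were -0.90 (SE 0.059, adjusted p = 2.36e-10) for PSMB5, -0.76 (SE 0.0534, adjusted p = 5.93e-10) for PSMB6 and -0.76 (SE 0.0602, adjusted p = 2.9e-09) for PSMB7.

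The 19S ATPases form the ring that unfolds and feeds the substrate. All 6 were lower, with a median of -1.04, and 4 of them fell by at least 1 on the log2 scale. PSMC4 was at 81.88, 75.09 and 81.02 CPM under hypoxia and at 197.1, 213.1 and 183.1 CPM under normoxia. It had the largest fall of the 6, to 40.1% of the normoxia level (log2-fold change -1.32, SE 0.0624, adjusted p = 4.22e-12), and PSMC6 the smallest, to 66.5%. PSMC5, at -1.13, shares 874 exon bases with FTSJ3 on the opposite strand in GENCODE v29. FTSJ3 had 94.2% of its CPM and also fell (-1.39), and whether reads were counted by strand is not given in the sources used here, so reads over the shared bases cannot be told apart.

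The non-ATPase subunits of the cap include the ubiquitin receptors, the scaffold and the deubiquitinase. All 11 taken by the name rule were lower, with a median of -1.06. PSMD11, a subunit of the lid, was at 118.4, 98.81 and 108.7 CPM under hypoxia and at 288.7, 312.8 and 264.9 CPM under normoxia. This was the largest fall of any constitutive subunit, to 37.6% of normoxia (log2-fold change -1.41, SE 0.0707, adjusted p = 8.42e-12). PSMD2, a scaffold of the base and the member with the most reads, was at 679.7, 579.7 and 633 CPM under hypoxia and at 1476, 1534 and 1476 CPM under normoxia. Its level fell to 42.2% of normoxia (log2-fold change -1.25, SE 0.0585, adjusted p = 3.82e-12). PSMD14, the deubiquitinase of the lid, fell by 0.97 on the log2 scale. PSMD4, a ubiquitin receptor, had the smallest fall of the 11, at 147, 150 and 151.2 CPM against 194.7, 204.1 and 203.6 CPM. This still left a gap between the conditions wider than the range within either (log2-fold change -0.43, SE 0.0502, adjusted p = 5.32e-07). SEM1, outside the rule, fell less (log2-fold change -0.29, SE 0.0593, adjusted p = 0.000226). Split by position, a split made after the values were seen, the 8 lid subunits of the name rule had a median of -1.01. They ran from -1.41 (PSMD11) to -0.86 (PSMD6). The 3 non-ATPase subunits of the base in the rule had a median of -1.15, but ran from -1.25 (PSMD2) to -0.43 (PSMD4). The difference between lid and base was not tested.

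**Figure D2:**
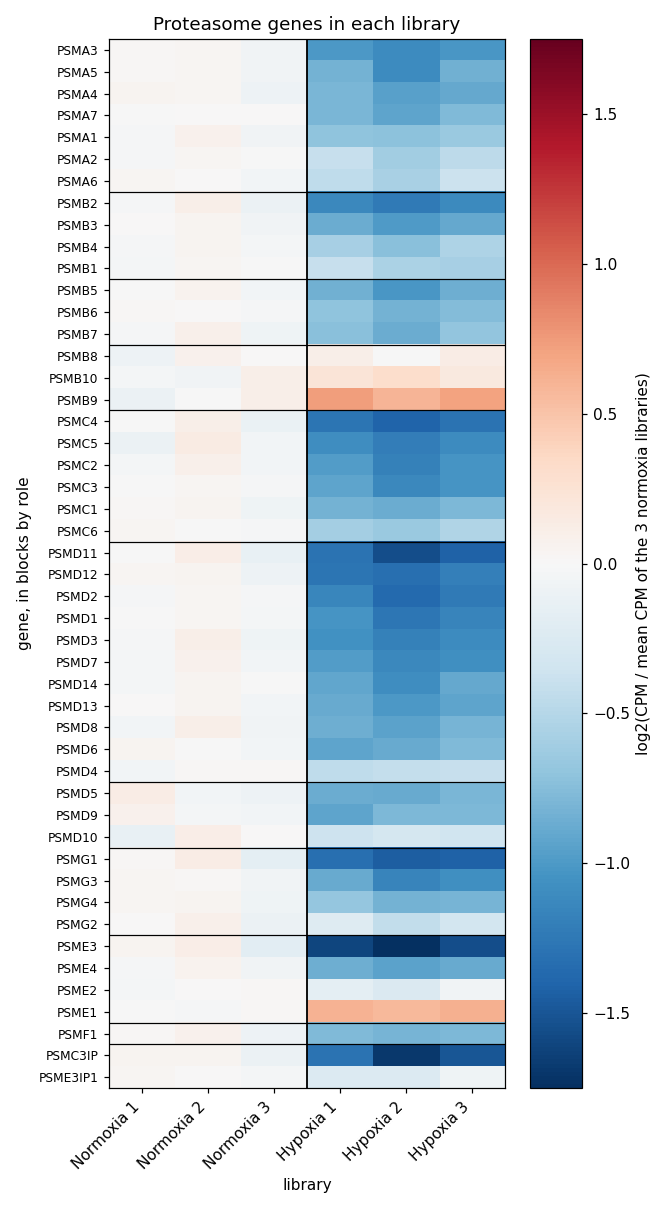
Each library's CPM of each of the 48 genes as log2 of its ratio to the mean of the 3 normoxia libraries, in blocks by role; blue is lower and red is higher. The hypoxia columns are blue in every row of the constitutive subunits, and the deepest column is hypoxia replicate 2, whose median over the members was -0.93.

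Genes for building the particle moved with its subunits. PSMG1 to PSMG4 code for chaperones that assemble the 20S core, and all 4 were lower. PSMG1 was at 22.83, 20.97 and 21.3 CPM under hypoxia and at 57.69, 62.1 and 50.47 CPM under normoxia, a fall to 38.2% (log2-fold change -1.39, SE 0.0788, adjusted p = 3.94e-11). Its partner in the chaperone dimer, PSMG2, fell less, to 79.8% of normoxia (log2-fold change -0.33, SE 0.0778, adjusted p = 0.00106). PSMG3 fell by 1.03 and its partner PSMG4 by 0.77 on the log2 scale. With limma on log2(FPKM + 1) the change of PSMG4 was smaller, at -0.425, and was still called (adjusted p = 6.23e-05). PSMG4 shares 1388 exon bases with SLC22A23 on the opposite strand, which had 72.1% of its CPM and rose (1.53). The chaperones of the 19S base, PSMD5, PSMD9 and PSMD10, were lower in 3 of 3. PSMD5 was at 39.73, 39.55 and 41.73 CPM under hypoxia and at 79.86, 70.04 and 68.28 CPM under normoxia. Normoxia replicate 1 stood above the other 2 normoxia libraries, and the conditions did not overlap (log2-fold change -0.85, SE 0.0671, adjusted p = 2.79e-09). PSMD10, also known as gankyrin, fell by 0.33. PSMF1, an inhibitor of the 20S core, was at 132, 128.2 and 129.9 CPM under hypoxia and at 226.9, 235.9 and 210.9 CPM under normoxia, and so fell together with what it inhibits (log2-fold change -0.79, SE 0.0545, adjusted p = 5.05e-10).

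The 4 activators, which open the core in place of the 19S cap, spanned nearly the whole range of the members. PSME3, the nuclear activator, was at 97.27, 86.3 and 101 CPM under hypoxia and at 305.2, 320.9 and 259 CPM under normoxia. It had the largest fall of all 48 genes, to 32.1% of normoxia (log2-fold change -1.64, SE 0.076, adjusted p = 3.42e-12). PSME3 shares 300 exon bases with BECN1 on the opposite strand, which had 29.8% of its CPM and a log2-fold change of -0.52. PSME1 moved the other way, at 173.2, 167.8 and 175.4 CPM under hypoxia and at 113.6, 112.1 and 115.3 CPM under normoxia. Both conditions were tight, and hypoxia was 1.51-fold higher (log2-fold change 0.60, SE 0.0506, adjusted p = 7.26e-09). PSME2, which builds one ring with PSME1, was at 86.98, 82.49 and 94.15 CPM under hypoxia and at 95.99, 98.97 and 99.45 CPM under normoxia. The gap between the conditions was narrow, and the fall of 0.16 on the log2 scale (SE 0.058, adjusted p = 0.0188) did not pass without hypoxia replicate 2 (-0.12, adjusted p = 0.0854), nor in 4 other of 14 alternatives, over which the adjusted p ran from 0.00271 to 0.193. PSME2 also shares 216 exon bases with RNF31 on the opposite strand, which had 42% of its CPM. PSME4, an activator of the nucleus, fell by 0.89 on the log2 scale.

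The 3 catalytic subunits of the immunoproteasome did not fall with the genes they replace. PSMB9, the counterpart of PSMB6, was at 58.89, 53.26 and 57.57 CPM under hypoxia and at 32.92, 35.3 and 37.82 CPM under normoxia. Every hypoxia library was above every normoxia library, by 1.6-fold in the fit (log2-fold change 0.68, SE 0.0682, adjusted p = 7.01e-08). PSMB9 shares 139 exon bases with PSMB8 on the opposite strand, whose CPM was 186% of its own. PSMB10, the counterpart of PSMB7, was at 23.09, 24.33 and 22.13 CPM under hypoxia and at 19.19, 18.91 and 21.09 CPM under normoxia. The conditions came within about 1 CPM of each other, with a log2-fold change of 0.23 (SE 0.0837, adjusted p = 0.0172). This call was lost without hypoxia replicate 2 (0.19, adjusted p = 0.0742), without normoxia replicate 1 (0.20, adjusted p = 0.0816), without normoxia replicate 2 (0.20, adjusted p = 0.0691) and with no filter on low counts (0.19, adjusted p = 0.0674), and over 14 alternatives the adjusted p ran from 0.00296 to 0.0816. PSMB8, the counterpart of PSMB5, was at 89.44, 83.08 and 91.44 CPM under hypoxia and at 78.49, 87.51 and 83.69 CPM under normoxia. The conditions overlapped, and the log2-fold change of 0.08 (SE 0.0592, adjusted p = 0.222) did not pass. It passed only with the filter of at least 10 counts in every library (0.16, adjusted p = 0.0204), a setting that moved the median of all shared genes up by 0.0775, and over the 14 alternatives the adjusted p ran from 0.0204 to 0.756.

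Set against the constitutive subunit of the same position, all 3 immunoproteasome genes were higher under hypoxia in every library. The ratio of PSMB8 to PSMB5 in FPKM was 0.551, 0.579 and 0.566 under hypoxia and 0.272, 0.288 and 0.298 under normoxia, a change of 1.98-fold. The ratio of PSMB9 to PSMB6 was 0.471, 0.467 and 0.481 under hypoxia and 0.16, 0.174 and 0.189 under normoxia, a change of 2.72-fold. The ratio of PSMB10 to PSMB7 was 0.139, 0.161 and 0.129 under hypoxia and 0.0708, 0.0644 and 0.0805 under normoxia, a change of 1.99-fold. None of the 3 ratios overlapped between the conditions. A two-sided exact permutation test gave p = 0.1 for each pair (0.1 after Benjamini-Hochberg adjustment over the 3 pairs), which is the smallest value that 3 against 3 libraries allow. The sum of the 3 immunoproteasome genes was 139 ± 3.05 FPKM under hypoxia and 108 ± 4.43 FPKM under normoxia, and that of PSMB5, PSMB6 and PSMB7 was 392 ± 17.7 against 661 ± 18.9 FPKM (SD, n = 3). The immunoproteasome genes thereby made up 26, 26.8 and 25.9% of the catalytic FPKM under hypoxia and 13.4, 13.7 and 14.9% under normoxia. These shares and the size of each ratio rest on the gene lengths used by the authors, but the changes of the ratios were the same with counts. With the length of the principal GENCODE transcript, PSMB8 would be at 72.8 in place of 53.6 FPKM under normoxia. PSMB9 would be at 44.4 in place of 34.2 FPKM, and PSMB10 at 15.9 in place of 19.9 FPKM.

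**Figure D3:**
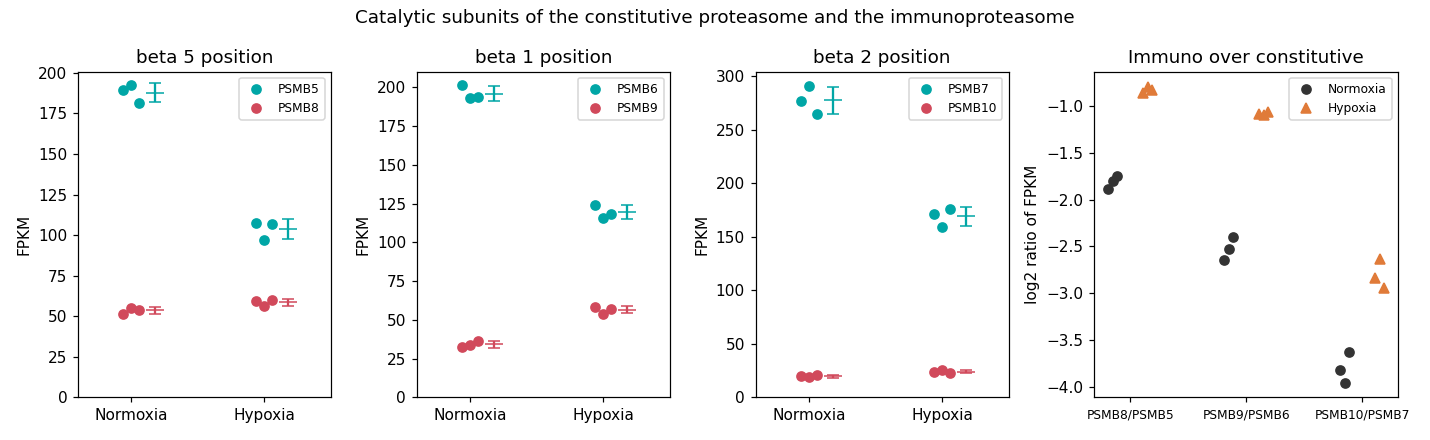
FPKM of the constitutive and immunoproteasome gene at each catalytic position in each library, with the mean and SD beside the points, and at the right the log2 ratio of each pair. The constitutive genes were lower under hypoxia at all 3 positions, and the ratio of PSMB9 to PSMB6 moved most, by 1.44 on the log2 scale.

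The promoters of the 3 members that rose are shown with those of PSME2, the ring partner of PSME1, and of PSME3, the gene with the largest fall. Each line gives the strand of the gene 5′ to 3′, from 250 bases before the RefSeq start to 20 after it (GRCh38.p14), and the regions are chr6:32853942-32854211 (plus strand) for PSMB9, chr16:67936831-67937100 (minus strand) for PSMB10, chr14:24135944-24136213 (plus strand) for PSME1, chr14:24146591-24146860 (minus strand) for PSME2 and chr17:42833147-42833416 (plus strand) for PSME3. Capitals mark 4 motifs searched on both strands, which may overlap: TGACNNNGC, the core of the antioxidant response element, ACGTG and GCGTG, the cores of the hypoxia response element, and GAAANNGAA, the core of the interferon-stimulated response element.
PSMB9: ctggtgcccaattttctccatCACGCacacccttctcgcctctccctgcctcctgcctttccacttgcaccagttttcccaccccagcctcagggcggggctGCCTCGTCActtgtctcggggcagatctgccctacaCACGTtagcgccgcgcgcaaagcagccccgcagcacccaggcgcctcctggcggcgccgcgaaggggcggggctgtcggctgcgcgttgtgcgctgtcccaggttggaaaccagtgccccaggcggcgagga
PSMB10: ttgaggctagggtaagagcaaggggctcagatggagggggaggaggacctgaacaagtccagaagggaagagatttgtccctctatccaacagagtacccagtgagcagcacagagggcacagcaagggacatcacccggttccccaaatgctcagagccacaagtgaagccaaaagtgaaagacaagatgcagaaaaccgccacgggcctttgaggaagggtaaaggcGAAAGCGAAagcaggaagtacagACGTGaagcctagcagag
PSME1: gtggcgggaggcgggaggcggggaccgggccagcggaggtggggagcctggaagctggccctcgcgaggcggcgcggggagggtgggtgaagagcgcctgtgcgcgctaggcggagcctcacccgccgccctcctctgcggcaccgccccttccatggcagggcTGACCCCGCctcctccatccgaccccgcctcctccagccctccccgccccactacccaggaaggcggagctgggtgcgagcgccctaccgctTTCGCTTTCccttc
PSME2: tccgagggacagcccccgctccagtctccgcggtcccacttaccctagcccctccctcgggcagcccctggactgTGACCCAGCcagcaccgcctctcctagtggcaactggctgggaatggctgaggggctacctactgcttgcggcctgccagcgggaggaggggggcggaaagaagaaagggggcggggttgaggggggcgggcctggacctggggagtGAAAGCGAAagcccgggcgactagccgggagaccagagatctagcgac
PSME3: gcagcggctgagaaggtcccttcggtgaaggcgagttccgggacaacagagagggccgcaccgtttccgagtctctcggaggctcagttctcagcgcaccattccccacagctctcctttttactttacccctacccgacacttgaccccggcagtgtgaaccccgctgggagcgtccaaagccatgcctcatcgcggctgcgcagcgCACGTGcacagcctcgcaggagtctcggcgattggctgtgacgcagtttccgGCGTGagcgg

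In PSME2 and PSMB10 the interferon motif begins 28 and 21 bases before the start, and in PSME1 it lies on the other strand, from base 7 after the start. The antioxidant motif begins 86 bases before the start in PSME1 and 175 before it in PSME2. In PSMB9 it lies on the other strand and begins 148 bases before the start. No match to GAAANNGAA, the only interferon pattern searched, stands in the window of PSMB9. Hypoxia motifs stand in genes that rose and in the gene with the largest fall. PSMB9 holds ACGTG and GCGTG on the other strand, 112 and 229 bases before the start, and PSMB10 holds ACGTG from base 3 after the start. PSME3 holds GCGTG from base 11 after the start and ACGTG on both strands, as an overlapping palindrome that begins 42 bases before the start. Over the whole window of 300 bases, 42 of the 48 members matched the table of promoters, with 53 start sites. TGACNNNGC was in 28.3% of the member windows and in 13.3% of all 35116 windows of the same length, and GAAANNGAA was in 15.1% against 8.11%. ACGTG was in 22.6% of the member windows against 21.4% of all windows, and GCGTG in 41.5% against 36.5%. The windows with GAAANNGAA belonged to PSMA4, PSMB4, PSMC2 and PSMG4, which fell, to PSME2, and to PSMB8, PSMB10 and PSME1. Those with TGACNNNGC belonged to PSMB9 and PSME1, which rose, and to PSME2. They also belonged to PSMA4, PSMB3, PSMC4, PSMC5, PSMD1, PSMD3, PSMD5, PSMD9, PSMD12, PSME4, PSMG1 and PSMG2, which fell. These are matches of letters and not sites shown to be bound.

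Levels of the subunits differed far more than their changes did, although the 20S core holds each alpha and beta subunit in equal number. Under normoxia the core genes ran from 22 FPKM (PSMA5) to 450 FPKM (PSMA7), a ratio of 20.4, and under hypoxia from 12 to 262 FPKM in the same genes, a ratio of 21.7. In the alpha ring PSMA7 was followed by PSMA2, at 259 ± 0.58 FPKM, and the gap was larger than the SD of either. In the beta ring under normoxia PSMB4 (296 ± 4.71 FPKM), PSMB7 (277 ± 12.8 FPKM) and PSMB1 (269 ± 1.72 FPKM) led, and PSMB7 and PSMB1 did not differ beyond their spread. PSMB2 was the lowest of that ring at 77 ± 4.56 FPKM. The ATPases ran from PSMC3 at 196 to PSMC6 at 31.6 FPKM, and the non-ATPases from PSMD2 at 487 to PSMD12 at 29.2 FPKM under normoxia. The 3 immunoproteasome genes were at 53.6 (PSMB8), 34.2 (PSMB9) and 19.9 FPKM (PSMB10) under normoxia, and at 58.6, 56.5 and 24.1 FPKM under hypoxia, where PSMB8 and PSMB9 lay within their spread of each other. FPKM rests on the gene length used by the authors. For PSMG4 that length was 10891 bases and the principal GENCODE transcript has 838, so its 1.83 FPKM under normoxia would be 23.7 with the shorter length, and PSMA6 would be at 237 in place of 85.1 FPKM. The order of some genes turns with it: PSMC6 would be at 53.2 and PSMC1, then the lowest ATPase, at 50.6, and PSMD2 (426) would be below PSMA7 (434). With the principal transcript the ratio of PSMA7 to PSMA5 under normoxia was 19.3, an alternative chosen after seeing the data.

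**Figure D4:**
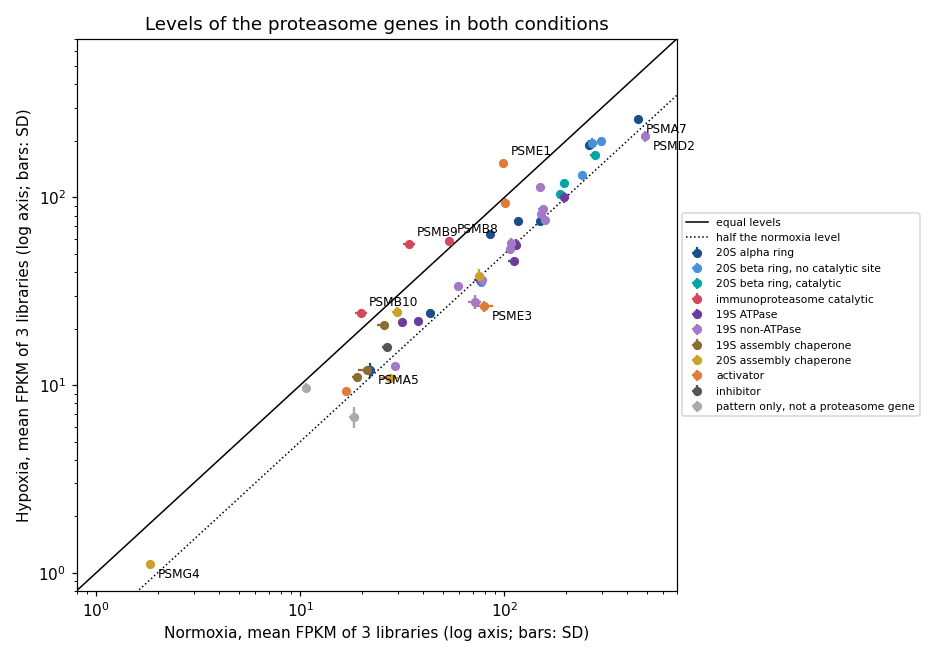
Mean FPKM of the 48 genes under hypoxia against normoxia on log axes, with bars for the SD of the 3 libraries, the solid line for equal levels and the dotted line for 50% of the normoxia level. Most genes lie between the lines or just under the dotted one, while PSME1, PSMB8, PSMB9 and PSMB10 lie above the solid line.

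The 2 genes with the name only were also lower. PSMC3IP was at 12.18, 9.249 and 10.54 CPM under hypoxia and at 30.8, 30.86 and 27.75 CPM under normoxia (log2-fold change -1.49, SE 0.102, adjusted p = 4.21e-10). It shares 770 exon bases with MLX on the opposite strand, whose CPM was 285% of its own. PSME3IP1 changed by -0.18 (SE 0.061, adjusted p = 0.0115), a call that was lost in 4 of 14 alternatives, with adjusted p from 0.00125 to 0.116.

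Outside the name rule, a list of 33 genes of the ubiquitin-proteasome system was followed, and all 33 passed the filter. Of these, 25 were lower and 3 were higher, against 38.5% and 39.2% of all tested genes. The other 5 did not pass, and the median log2-fold change of the list was -0.48. At a change of at least 0.5 on the log2 scale 15 were lower and 1 was higher, against 25.7% and 29.8% of all tested genes, and of the 48 members 37 were lower and 2 higher. Partners and chaperones of the particle, listed together with ADRM1 and SEM1, were lower in 10 of 11, with FBXO7 not called. UCHL5, a deubiquitinase of the 19S cap, was at 36.65, 32.05 and 35.6 CPM under hypoxia and at 78.74, 83.21 and 75.51 CPM under normoxia (log2-fold change -1.19, SE 0.066, adjusted p = 2.96e-11). POMP, the chaperone that completes the 20S core, was at 79.03, 74.55 and 82.72 CPM under hypoxia and at 171.8, 180.5 and 157.7 CPM under normoxia (log2-fold change -1.11, SE 0.0614, adjusted p = 2.86e-11). Both stood at less than 50% of their normoxia level. Shuttle factors, which carry tagged proteins to the cap, were lower in 6 of 6 within a narrow range from -0.59 to -0.46. The segregase that extracts tagged proteins was lower in 3 of 3. Its ATPase VCP was at 406.2, 355.5 and 386.9 CPM under hypoxia and at 827.3, 869.8 and 826.1 CPM under normoxia (log2-fold change -1.14, SE 0.0562, adjusted p = 7.2e-12).

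UBB, a polyubiquitin gene, fell (log2-fold change -0.44, SE 0.0564, adjusted p = 1.48e-06), and RPS27A, which fuses ubiquitin to a ribosomal protein, did not pass (0.06, SE 0.0578, adjusted p = 0.394). Of the ubiquitin-activating enzymes UBA1 fell by 0.37, and UBA6 rose, at 124.4, 131.1 and 128.9 CPM against 104.8, 106.5 and 112.5 CPM (log2-fold change 0.25, SE 0.0532, adjusted p = 0.000406).

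NFE2L1 codes for the transcription factor known for raising all proteasome genes together when proteasome activity is short. It was at 256.4, 252.2 and 259 CPM under hypoxia and at 223.1, 225.5 and 239.4 CPM under normoxia, a small rise (log2-fold change 0.16, SE 0.0506, adjusted p = 0.00895). The call was lost without normoxia replicate 1 (0.12, adjusted p = 0.0741) and with no filter on low counts (0.12, adjusted p = 0.0673), and over 14 alternatives the adjusted p ran from 0.000385 to 0.0741. NGLY1, the glycanase that processes the NFE2L1 protein, was at 34.85, 40.17 and 37.75 CPM under hypoxia and at 24.35, 24.18 and 23.83 CPM under normoxia (log2-fold change 0.64, SE 0.0736, adjusted p = 3.88e-07). It was the largest rise of the 33. NFE2L2, the antioxidant regulator, was at 62.32, 63.24 and 65.03 CPM under hypoxia and at 89.14, 104.4 and 94.07 CPM under normoxia, a fall by 0.59 on the log2 scale (SE 0.0621, adjusted p = 1.21e-07).

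The 4 interferon pathway genes of the list, known to be induced with the immunoproteasome, had log2-fold changes from -1.25 to -0.07, and 1 of them passed the test. IRF1 and NLRC5, both transcriptional activators of antigen presentation genes, did not pass, with values of -0.08 (SE 0.0712, adjusted p = 0.292) and -0.10 (SE 0.0811, adjusted p = 0.265). TAP1, a subunit of the peptide transporter, has a start site 488 bases from that of PSMB9. It was at 91.28, 99.32 and 100.3 CPM under hypoxia and at 104.6, 103.2 and 97.52 CPM under normoxia, with overlap between the conditions (log2-fold change -0.07, SE 0.0566, adjusted p = 0.267). TAP2, the other subunit, was at 124.3, 106.3 and 117.7 CPM under hypoxia and at 280.8, 299.7 and 249.4 CPM under normoxia. That was the largest fall of the 33 (log2-fold change -1.25, SE 0.0703, adjusted p = 3.37e-11).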

How the data were processed

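The labels give 6 libraries of total RNA, prepared with an mRNA-seq kit, in 2 conditions with replicate numbers 1 to 3. The authors deposited counts, whole numbers of reads per gene with no normalization, and FPKM for the same 21776 genes. The FPKM of 21775 genes and of all 48 members could be recomputed from the deposited counts with 1 length per gene (relative tolerance 0.0001); that of NMT1 could not. The aligner, counter, annotation, strand setting and test are not given in the sources used here. The submitters' processing notes list the mouse builds GRCm38 and mm10, while the labels and gene symbols are human, so no gene coordinates are given; promoters are from RefSeq (GRCh38.p14), matched by Entrez number, and exon overlaps from GENCODE release 29. In that annotation 12 members have 32 named pseudogenes, none of them in the count table, and 21 members share exon bases with a gene on the opposite strand.

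The test on counts was that of edgeR 4.0.16 under R 4.3.3 (glmQLFit and glmQLFTest, TMM, filterByExpr, condition as the only term, Benjamini-Hochberg over 14255 genes, threshold 0.05). Standard errors were derived from the log2-fold change and its F statistic, and CPM were scaled by TMM. The common biological coefficient of variation was 0.0685. Replicates differed by more than sampling noise in every pair (chi-square per gene 5.11 to 11.5). The fits were tested on simulated data first. Alternatives were DESeq2 1.42.0 (size factors, Wald test), other filters, the replicate block, each library left out, a minimum log2-fold change, and limma 3.58.1 on log2(FPKM + 1) or log2(FPKM + 0.1). Same-numbered libraries of the 2 conditions did not deviate together (correlations of 0.0175, -0.069 and 0.00122), so the block is an alternative only.

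The members and lists were chosen with earlier results of these data known, and some listed genes are not reported here. Values in every library are given for the largest called change in each role and direction, the catalytic and immunoproteasome genes, members whose call is lost without 1 library, and, of the wider list, the 3 largest called changes in each direction, NFE2L1, NFE2L2 and POMP. PSMD2, PSMD4, TAP1, ADRM1, SEM1 and genes at the ends of a range were named after their values were seen.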

Additional observations from a re-analysis of the deposited data

How the results depend on the processing

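The number of members called lower was 42 to 44 and of members called higher 2 to 4 under every alternative other than a minimum log2-fold change of 0.5, which gave 37 and 2 members and 7914 called genes in all. Leaving out each library in turn gave 43 to 44 lower and 2 to 3 higher members, 10669 to 11390 called genes in all, and a median member change of -0.92 to -0.84. The replicate block gave 44 lower, 3 higher, 10875 called genes and a median of -0.87, and changed no member's call. The median was -0.79 when every library had to hold at least 10 counts and -0.79 with limma on log2(FPKM + 1), with or without its filter. The filter of 10 counts moved all shared genes by a median of 0.0775, the size of the members' move, so it is a shift of scale, and limma moved them by 0.05 and 0.0441; the cause of the rest was not tested. No member's log2-fold change turned its sign. Of the wider list 15 were lower and 1 higher at a minimum change of 0.5, 5 were higher with at least 10 counts per library, and with any 1 library left out 25 were lower and 2 to 4 higher. Under the filter of 10 counts, with its shift of all genes, TAP1 turned from -0.07 to 0.008, not passing under any alternative (adjusted p from 0.0676 to 0.901), and FBXO7 and RPS27A were called higher. RPS27A was called higher also without hypoxia replicate 2. Leaving out each library gave changes in the log2 ratios of 0.95 to 1.02 (PSMB8/PSMB5), 1.38 to 1.504 (PSMB9/PSMB6) and 0.91 to 1.08 (PSMB10/PSMB7). The ratio of PSMA7 to PSMA5 was 19.3 with principal transcript lengths. GCGTG was in 26.4% of the 53 member windows on the gene's strand alone, against 22.3% of all windows. Among the calls with small changes, those of PSMB10 (0.23), PSME2 (-0.16), PSME3IP1 (-0.18) and NFE2L1 (0.16) were lost under some alternatives. The call of UBA6 (0.25) was kept in 14 alternatives (adjusted p from 2.76e-05 to 0.00716). The smallest change that 3 libraries per condition can resolve was not tested.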

Other observations

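Of 5 non-coding genes that share a name with a member, 4 were tested and 3 of these were called higher, a call made for 39.2% of all tested genes. PSMG3-AS1 was at 28.1, 30.73 and 31.4 CPM under hypoxia and at 4.676, 5.382 and 7.876 CPM under normoxia, 5.07-fold higher (log2-fold change 2.34, SE 0.138, adjusted p = 6.42e-11), while PSMG3 fell by 1.03 on the log2 scale. The 2 genes share 60 exon bases. PSMD6-AS2 was at 3.439, 4.974 and 3.667 CPM under hypoxia and at 0.9943, 0.8038 and 1.792 CPM under normoxia (log2-fold change 1.76, SE 0.276, adjusted p = 1.69e-05), and PSMD6 fell by 0.86. PSMA3-AS1 rose as well (0.59, SE 0.105, adjusted p = 6.23e-05), and PSMA3 fell by 1.04. Neither PSMB8-AS1 (-0.39, SE 0.225, adjusted p = 0.12) nor PSMB8 passed. PSMD7-DT did not pass the filter on low counts. PSMA3 shares no exon bases with another gene in GENCODE release 29.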
